A study of Mus musculus with 8 samples.

Results

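The 10 genes described here are 3 FOXO transcription factors (Foxo1, Foxo3 and Foxo4), the receptors and adaptors of the insulin signal (Insr, Igf1r, Irs1 and Irs2) and 3 genes that FOXO factors are known to switch on (Ccng2, Cdkn1b and Txnip). They were chosen by name, and their members in the data are the YTHDF3 RIP-seq peaks that the deposited lists assign to one of these names. Of 87096 peaks that passed the thresholds, 160 carried a member's name, and they merged into 46 of 39979 regions. The study set Foxo3 at the centre of the response of cells to lost nutrients, so Foxo3 is set here beside its paralogues and targets.

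Mouse embryonic fibroblasts (MEFs) were lysed, RNA held by endogenous YTHDF3 was pulled down with an antibody (IP), and polyA RNA of the IP and of an input was sequenced. All MEFs were wild type C57BL/6 cells from embryos of day 13.5. The normal group stayed in high glucose medium with serum, and the starved group spent 2 h in medium deprived of nutrients. Each group has 2 replicates, and the labels do not say that these were separate cultures, so that p-values measure the spread between these samples, which may be technical.

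FOXO factors are DNA-binding proteins that insulin and growth factors hold in check. Ligand binding to the insulin or IGF1 receptor recruits IRS adaptors, which activate PI3K and AKT, and AKT phosphorylates FOXO proteins so that they leave the nucleus. When the signal falls, FOXO factors switch on genes of cell cycle arrest, stress resistance and autophagy, and they also raise expression of Insr and Irs2. YTHDF3 is a cytoplasmic reader of m6A, a methyl mark on adenosines of mRNA that is dense near stop codons and often lies in the letters GGAC.

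The 3 stretches below are shown because the study looked at sites around the Foxo3 stop codon. For Foxo3 and Foxo1 they are the last 300 coding bases with the stop codon at the end. The Foxo3 stretch lay inside a peak in all 4 libraries, while that of Foxo1 lay mostly inside peaks of normal replicate 1 and starved replicate 1, was touched by the peak of starved replicate 2 at its first bases and lay outside the peaks of normal replicate 2. For Foxo4 it is the coding stretch of 200 bases that was its single peak. They were read on the mRNA strand from the mm10 assembly (RefSeq GRCm38.p6), with GGAC in capitals.
Foxo3, chr10:42196501-42196800, minus strand, exon 3: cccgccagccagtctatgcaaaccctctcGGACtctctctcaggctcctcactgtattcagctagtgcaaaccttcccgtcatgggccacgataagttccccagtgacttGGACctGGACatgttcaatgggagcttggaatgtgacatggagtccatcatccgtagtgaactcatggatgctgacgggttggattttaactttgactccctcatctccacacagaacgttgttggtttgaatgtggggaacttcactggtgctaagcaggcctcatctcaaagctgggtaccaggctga
Foxo1, chr3:52346077-52346376, plus strand, exon 2: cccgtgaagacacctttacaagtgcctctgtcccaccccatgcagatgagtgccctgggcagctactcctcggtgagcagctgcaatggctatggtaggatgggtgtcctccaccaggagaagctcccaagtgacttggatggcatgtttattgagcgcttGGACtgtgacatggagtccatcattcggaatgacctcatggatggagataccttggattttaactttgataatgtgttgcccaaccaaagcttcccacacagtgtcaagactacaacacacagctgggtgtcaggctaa
Foxo4, chrX:101258871-101259070, plus strand, exon 2: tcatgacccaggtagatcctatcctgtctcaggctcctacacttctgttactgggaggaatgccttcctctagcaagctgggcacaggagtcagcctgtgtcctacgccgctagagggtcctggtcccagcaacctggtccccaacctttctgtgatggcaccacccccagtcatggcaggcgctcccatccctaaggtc
GGAC occurred 3 times in the Foxo3 stretch and 1 time in that of Foxo1. Counted from the first base of the stop codon, the Foxo3 copies began at -268, -187 and -181 and the Foxo1 copy at -136. The Foxo4 stretch held none, but it ends upstream of the last coding bases and of the stop codon. Elsewhere in the Foxo4 mRNA, copies began at -30, -25 and 100. Within 200 nt of the stop codon there were 3 copies in Foxo3, 1 in Foxo1 and 3 in Foxo4. These letters mark where the motif is, not where m6A was measured.

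Across the annotated mRNAs (GENCODE vM21), GGAC was counted on the mRNA strand. Foxo3 had 32 copies in 6848 nt, of which 15 lay in coding sequence and 17 in the 3′UTR, or 4.67 copies per kb. Foxo1 had 27 copies in 8665 nt (3.12 per kb) and Foxo4 had 12 in 3162 nt (3.80 per kb). Among all members the density was highest in Insr (4.70 per kb), just above Foxo3, and lowest in Ccng2 (2.14 per kb). Windows of 200 bp at the centres of the members' regions held GGAC in 14 of 25 cases (56.0%), against 4000 of 6460 (61.9%) for all regions in which the strand of an exon was known. The 95% exact Clopper-Pearson interval of the first share was 34.9% to 75.6%, so that no difference was detectable with 25 windows. The interval takes windows as independent, but 14 of the 25 regions belong to Insr, so it may be too narrow. The windows were cut from the genome, so those centred on short exons also hold intron sequence.

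Peaks were kept when the IP value was at least 2 times the input value at a p under 0.0001, and kept peaks that overlapped by at least 1 bp across libraries were merged into a region. The 4 libraries had 17364 to 24701 kept peaks with 8818619 to 19271667 IP reads and 2507434 to 5157523 input reads. The lists hold reads inside peaks alone, so library depth is unknown. No list names its input library, so the input of the same condition and replicate number was assumed. As a check of the cell type, 6 of 10 fibroblast markers had at least 1 kept region and none of 11 markers of other cell types had any. Only Pdgfrb of the fibroblast markers had regions in all 4 lists. Col1a1, Vim, Lum and Dcn had no kept peak, and a gene without a peak can still be expressed, since the lists hold only RNA enriched in the IP. Input reads in regions of the fibroblast markers summed to 15806 and 5006 in the normal libraries and 5164 and 17641 in the starved ones, and the groups overlapped. Of these, Col1a2 gave 10423 in normal replicate 1 and 0 in both libraries of replicate 2. Col3a1 gave 12428 in starved replicate 2. The sums were not normalized and depend on which peaks passed in each list, so they do not compare the cells of the groups.

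Of the members' 46 regions, 25 (54.3%) were called in all 4 lists, against 6531 of all 39979 regions (16.3%). They belonged to 6 genes, with 14 regions of Insr, 3 of Foxo3, 3 of Irs1, 2 of Foxo1, 2 of Igf1r and 1 of Irs2. The deposited name is that of the gene whose start lies nearest to the peak, and for some members it missed peaks inside their exons. Regions that overlapped an exon of Igf1r numbered 17 in all 4 lists, of which 15 carried the name Pgpep1l. The region over exon 2 of Irs2 was named 9530052E02Rik, a gene on the opposite strand. Counted by exon overlap, the 6 genes had 41 regions in all 4 lists, and both counts are given below. Reads were counted by place and the use of strand in the counting is not given in the sources used here. For exon 1 of Irs2, exon 1 of Foxo1 and exon 2 of Irs1, which overlap genes on the opposite strand, reads of the partners may therefore be included.

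Merged over the libraries, the regions of Foxo3 ran from end to end of the mRNA. The 3 regions called in all 4 libraries, chr10:42274571-42277180 over exons 1 and 2, chr10:42196231-42198140 over exon 3 and chr10:42181761-42186500 over exon 4, contained 100% of the 6848 nt of the mRNA and all 32 copies of GGAC. The region over exon 3 holds 1401 bases of coding sequence and the stop codon, and the region over exon 4 is 3′UTR. Within 1 library the peaks could cover less, as over exon 4, where 3940 of the 4740 bp of the region were called in normal replicate 1. Those of normal replicate 2 covered the whole mRNA. Merged regions likewise held 100% of the Irs2 mRNA, 99.0% of Irs1, 85.1% of Igf1r and 61.0% of Insr.

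The coverage of Foxo1 was of another kind. Its regions in all 4 lists, chr3:52268261-52269640 over exon 1 and chr3:52344811-52346470 over exon 2 with the stop codon, held 28.1% of the 8665 nt and 10 of 27 GGAC copies. The called length over exon 2 was 890 and 930 bp in the normal libraries and 1530 and 1120 bp in the starved ones. Only the peak of normal replicate 1 reached the stop codon, while the peaks of the other libraries in exon 2 ended before it. In Foxo3 the peaks of all 4 libraries covered exon 3 to its end. The other 5 regions of Foxo1 lay in its long 3′UTR in exon 3, each in 1 or 2 of the 4 lists. One of them, chr3:52348271-52348870, was called in both starved libraries and in neither normal one. It was the single member region with that pattern, and no member region was called in both normal libraries alone. The shares of all regions with these patterns are not given here, so neither count is read as a trait of the members. That Foxo1 region rested on 57 IP and 6 input reads in starved replicate 1 and on 89 and 17 in starved replicate 2. Foxo3 had 2 further regions, both in starved replicate 2 alone, with 20 IP reads and 0 input reads in an intron and 56 and 1 outside the transcript. By name, a further 10 regions of Insr and 1 of Igf1r were missing from at least 1 list. By exon overlap, 14 of the 23 regions of Insr and 17 of the 20 of Igf1r were in all 4 lists.

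Foxo4 had 1 kept peak, in starved replicate 1, with 106 IP reads against 20 input reads. Its IP/input fold was 2.27 (exact 95% interval 1.40 to 3.87, counting error only), close to the threshold of 2. Cdkn1b, the cell cycle inhibitor p27, had 2 kept peaks, both in exon 2 and both in normal replicate 2. The first, chr6:134922021-134922480 with the stop codon, had 155 IP reads against 61 (fold 2.54, interval 1.88 to 3.48). The second had 39 against 11 (fold 3.55, interval 1.78 to 7.68). No kept peak was named for Ccng2, an atypical cyclin of cell cycle arrest, or for Txnip, an inhibitor of thioredoxin and of glucose uptake. GGAC was not missing from these mRNAs, with 6 copies in Ccng2, 11 in Txnip and 13 in Cdkn1b. So none of the 3 target genes gave a comparison between normal and starved MEFs, and a peak absent from a list says only that the thresholds were not passed there. The study counted CDKN1B and TXNIP among hypermethylated mRNAs with more YTHDF3 binding after starvation. The peaks kept here could not be used to check that.

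**Figure D1:**
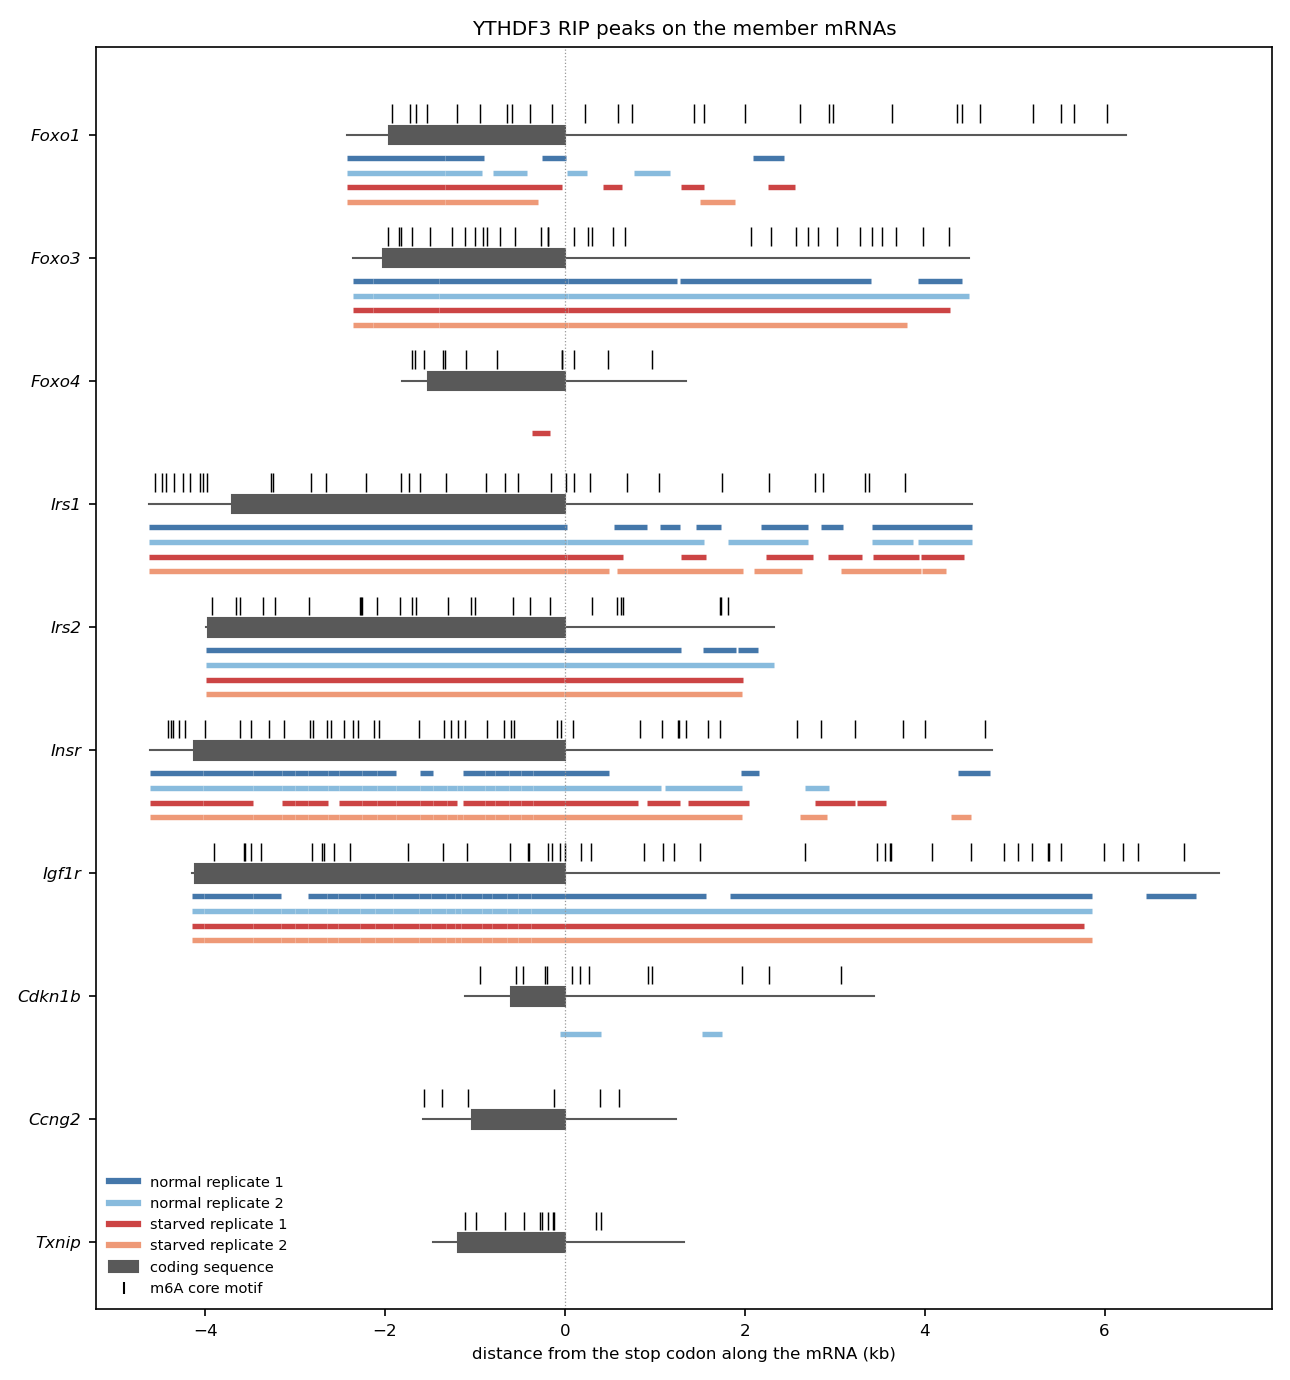
Kept YTHDF3 RIP peaks on the annotated mRNAs of the 10 genes, as distance in kb from the stop codon (dotted line), with 1 row of bars for each of the 4 libraries, the coding sequence as a box and the m6A core motif as ticks. Peaks of Foxo3 span most of the mRNA in all 4 libraries, Foxo1 has regions in all 4 lists over 28.1% of its length, peaks of Foxo4 and Cdkn1b are in 1 library each, and Ccng2 and Txnip have none.

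The first comparison asks whether YTHDF3 enrichment of the members differed between normal and starved MEFs. No member region changed its IP/input fold in both replicates by at least 1.8 times, and for the 3 Foxo3 regions the fold followed the replicate more than the condition. The fold was the IP value over the input value, each summed over the region as deposited, with at least 3 reads of input. Except in normal replicate 2, the deposited values are reads scaled differently for IP and input. The reads given below therefore do not divide to the folds. A change in a small part of a region, as near a stop codon, would be diluted in such a sum. The study used its cutoff of 1.8 on peaks, which is another measure. It reported more Foxo3 mRNA bound to YTHDF3 after starvation, by RIP-seq and by RIP-qPCR. Of all 6531 regions, 15 (0.230%) were higher in starved MEFs by this rule and 21 (0.322%) were lower. The member counts were 0 of 25 by name and 0 of 41 by exon overlap.

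Over exon 3 of Foxo3, which holds the stop codon, there were 2394 and 3504 IP reads in the normal libraries and 8574 and 7954 in the starved ones, with 643 and 663 against 1032 and 1032 input reads. The fold was 3.003 in normal replicate 1, 5.29 in normal replicate 2, 3.56 in starved replicate 1 and 5.14 in starved replicate 2. Over exon 4 it was 2.88 and 4.17 in the normal libraries and 3.06 and 3.91 in the starved ones. Both libraries of replicate 2 were thus above both of replicate 1, in either condition. Over exons 1 and 2 the fold was 4.29 and 5.32 in normal and 4.30 and 7.35 in starved MEFs, and the normal and starved values overlapped in each of the 3 regions. In edgeR, which tested the IP reads against the input reads in one model, the log2 change of the ratio in starved MEFs was 0.07 ± 0.22 (SE) over exon 3, -0.03 ± 0.19 over exon 4 and 0.20 ± 0.22 over exons 1 and 2, with n = 2 per condition. The Benjamini-Hochberg adjusted p was 0.999 for each.

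Foxo1 did not separate by condition either. Over its exon 1 the fold was 2.79 and 4.63 in normal and 2.42 and 3.99 in starved MEFs. Over exon 2 it was 3.49 and 2.44 in normal and 3.45 and 2.87 in starved MEFs. In exon 1 replicate 2 was the higher one in both conditions, and in exon 2 replicate 1 was. The edgeR log2 changes of the ratio were -0.26 ± 0.27 and 0.13 ± 0.28 (adjusted p = 0.999 for both).

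The folds of the adaptors Irs1 and Irs2 overlapped between conditions too. Over exon 1 of Irs1, chr1:82286571-82291750 with all 3696 coding bases, the fold was 3.01 and 4.20 in normal and 3.25 and 4.69 in starved MEFs. Over exon 1 of Irs2, chr8:11004271-11009590, it was 4.40 and 4.67 in normal and 3.65 and 5.16 in starved MEFs. The edgeR log2 changes were 0.11 ± 0.19 and -0.09 ± 0.18 (adjusted p = 0.999 for both). Over exon 2 of Irs1 the fold was 2.61 and 3.03 in normal and 3.37 and 2.66 in starved MEFs in the 5′ part and 2.66 and 2.35 against 3.72 and 2.46 in the 3′ part. Over exon 2 of Irs2 it was 3.06 and 3.94 in normal and 3.70 and 2.84 in starved MEFs. For the receptors, the fold summed over all exon regions of Insr was 2.62 and 3.14 in normal and 2.59 and 3.02 in starved MEFs. That of Igf1r was 2.69 and 3.14 in normal and 2.64 and 3.08 in starved MEFs. The edgeR log2 changes of the 14 Insr regions ran from -0.38 to 0.43 and those of the 17 Igf1r regions from -0.33 to 0.31.

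By exon overlap, 21 of 41 member regions (51.2%) had fold differences of opposite sign in the replicates, against 46.7% of all regions. In 28 of 41 (68.3%) the gap between the replicates' changes was larger than their mean, against 69.5% of all regions. Both starved folds lay above both normal ones in 2 of the 25 regions by name, over exons 10 and 16 of Insr, and below in 0, against 15.2% and 13.3% of all regions. By exon overlap, exons 12 and 15 of Igf1r were added to the former. No member passed the edgeR test of the ratio in either direction, where 1 region of all (0.0153%) was higher and 0% were lower. At an unadjusted p under 0.05 there were also 0 member regions, against 1.26% of all regions higher and 1.55% lower. DESeq2 gave 0 as well, and 0.0153% and 0% of all regions.

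**Figure D2:**
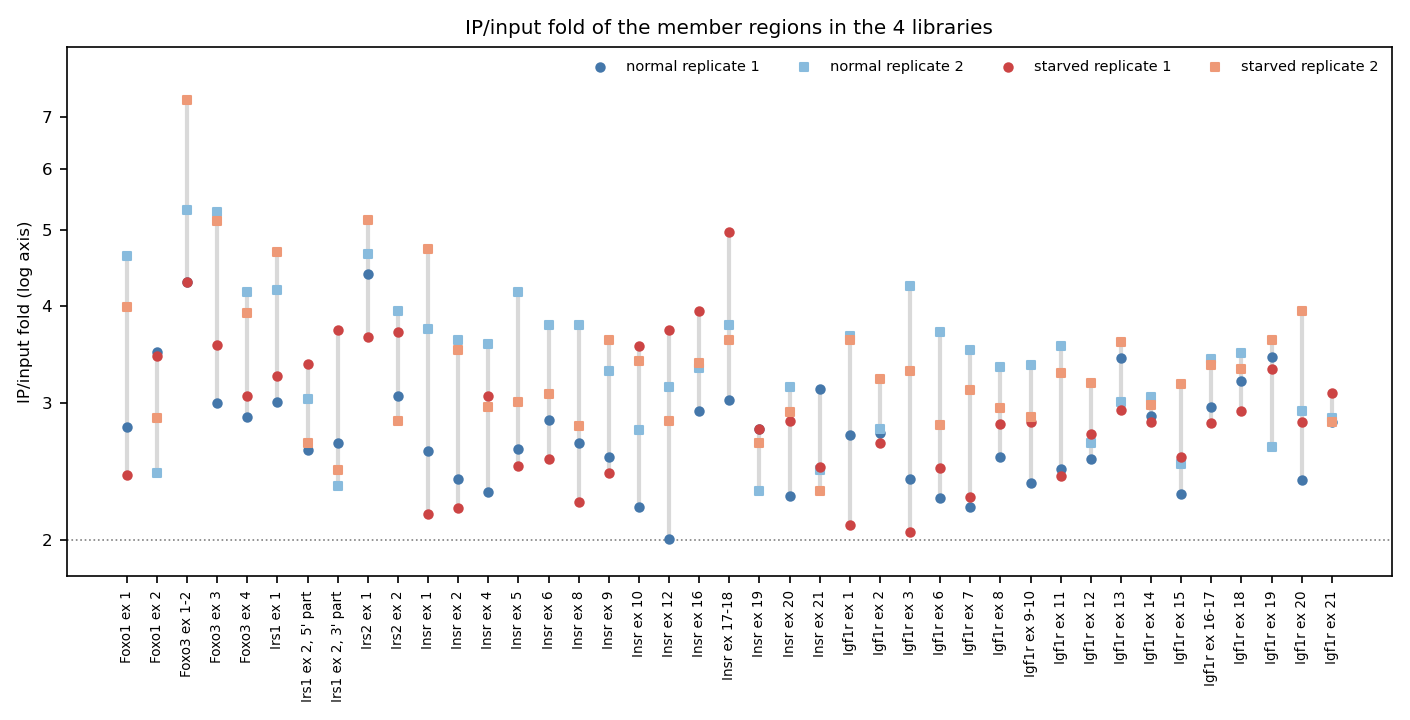
IP/input fold (log axis) of the 41 member regions called in all 4 lists, by exon overlap, with 1 point per library (circles for replicate 1, squares for replicate 2) and a grey line over their range. The dotted line is the threshold of 2, blue and red points overlap in nearly all regions, and the squares of Foxo3 exon 3 lie at 5.29 and 5.14 above the circles at 3.003 and 3.56.

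The second comparison took IP reads alone, per kb of called sequence and normalized between libraries. Foxo3 was higher in both starved libraries than in both normal ones in each of its 3 regions, Foxo1 in both of its regions, and Irs1 was lower in 2 of its 3. None of these passed the edgeR test, whose model did not pair the replicates. In bulk libraries a change in the number of cells that express a gene and a change in RNA per cell cannot be told apart.

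Over exon 3 of Foxo3 the normal libraries had 1708 and 2115 normalized IP reads per kb and the starved ones 3554 and 3512, without overlap. The edgeR log2 change was 0.89 ± 0.21 (SE, adjusted p = 0.130). Over exon 4 the values were 804 and 1103.5 in normal and 1559 and 1891 in starved MEFs, again without overlap (0.85 ± 0.23, adjusted p = 0.210). Over exons 1 and 2 they were 1095 and 1117 in normal and 1697 and 1707 in starved MEFs. Here the spread within each group was the smallest of the 3 regions and the log2 change was 0.62 ± 0.19 (adjusted p = 0.280). The called length of this region was 2080 and 1710 bp in the normal libraries and 2590 and 2130 bp in the starved ones. The same 957 nt of mRNA were covered in all 4 libraries, so the values per kb depend on called sequence outside the mRNA. With no offset for the called length, the edgeR log2 change was 0.83 (adjusted p = 0.535). Within the replicates the change per kb was 1.06 and 0.73 over exon 3, 0.96 and 0.78 over exon 4 and 0.63 and 0.61 over exons 1 and 2 (log2).

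The calls on Foxo3 differed between edgeR and DESeq2. DESeq2 passed exon 3 (adjusted p = 0.00994) and exon 4 (adjusted p = 0.0356) with log2 changes of 0.88 and 0.85, and did not pass exons 1 and 2 (adjusted p = 0.159). It called 1.03% of all regions higher and 1.73% lower, and 2 member regions higher and 0 lower. In edgeR, 12 of all regions (0.184%) were higher and 61 (0.934%) lower. The 3 Foxo3 regions were those of the members with a higher level at an unadjusted p under 0.05, where 5.01% of all regions were, and 1 member region, the 3′ part of Irs1 exon 2, was lower, where 5.37% of all regions were.

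In the scale of normalized IP reads per kb, Foxo1 lay below Foxo3. Over exon 1 the values were 366 and 485 in normal and 591 and 526 in starved MEFs, and over exon 2 they were 237 and 347 in normal and 387 and 471 in starved MEFs. The starved values were above the normal ones in both regions, by a margin smaller than the distance between the normal replicates, and the sequence called over exon 2 differed between the libraries as described. The edgeR log2 changes were 0.39 ± 0.23 (adjusted p = 0.668) and 0.55 ± 0.26 (adjusted p = 0.521).

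Irs1, the adaptor that couples the receptors to PI3K, had lower means in starved MEFs in its 3 regions. Over exon 1 the normal libraries had 2143 and 2154 normalized IP reads per kb and the starved ones 1262 and 1825 (log2 change -0.48 ± 0.23, adjusted p = 0.530). The 3′UTR in exon 2 held a pair of regions. In the 3′ part, chr1:82233021-82234780, the values were 436 and 472 in normal and 236 and 347 in starved MEFs (-0.64 ± 0.25, adjusted p = 0.402). In the 5′ part, chr1:82234871-82237800, they were 442 and 801 in normal and 317 and 484 in starved MEFs, and here the groups overlapped (-0.64 ± 0.33, adjusted p = 0.585). Starved replicate 1 was the lowest library in all 3 regions.

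Irs2, its relative, differed less. Over exon 1 the normal libraries had 1424 and 1353 normalized IP reads per kb and the starved ones 1489 and 1712, a log2 change of 0.20 ± 0.19 (adjusted p = 0.815). Over exon 2 the values were 583 and 745 in normal and 605 and 835 in starved MEFs, which overlapped (0.12 ± 0.24, adjusted p = 0.928). The difference between Irs1 and Irs2, or between Foxo3 and Foxo1, was not tested.

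The receptors showed small differences. Summed over its 14 regions Insr had 583 and 624 normalized IP reads per kb without starvation and 561 and 589 with it. Igf1r, the receptor of IGF1, had 1913 and 2396 in normal and 1997 and 2225 in starved MEFs over 17 regions. The edgeR log2 changes ran from -0.36 to 0.31 (median -0.05) for Insr and from -0.19 to 0.22 (median -0.02) for Igf1r, with adjusted p from 0.767 to 1.000 and from 0.829 to 0.995. Over the regions of Insr the starved libraries were both higher in 2, over exons 2 and 19, and both lower in 4, over exons 1, 4, 12 and 21. Regions of 1 mRNA share its reads' source and are not replicates of one another.

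Counted over all members by name, both starved libraries lay above both normal ones in 9 of 25 regions and below in 6, against 20.1% and 19.7% of all regions. By exon overlap the counts were 10 and 6 of 41. The 9 were made up of 3 regions of Foxo3, 2 of Foxo1, 2 of Insr, 1 of Irs2 and 1 of Igf1r. The median edgeR log2 change of the 25 regions was 0.00, against 0.01 for all regions.

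**Figure D3:**
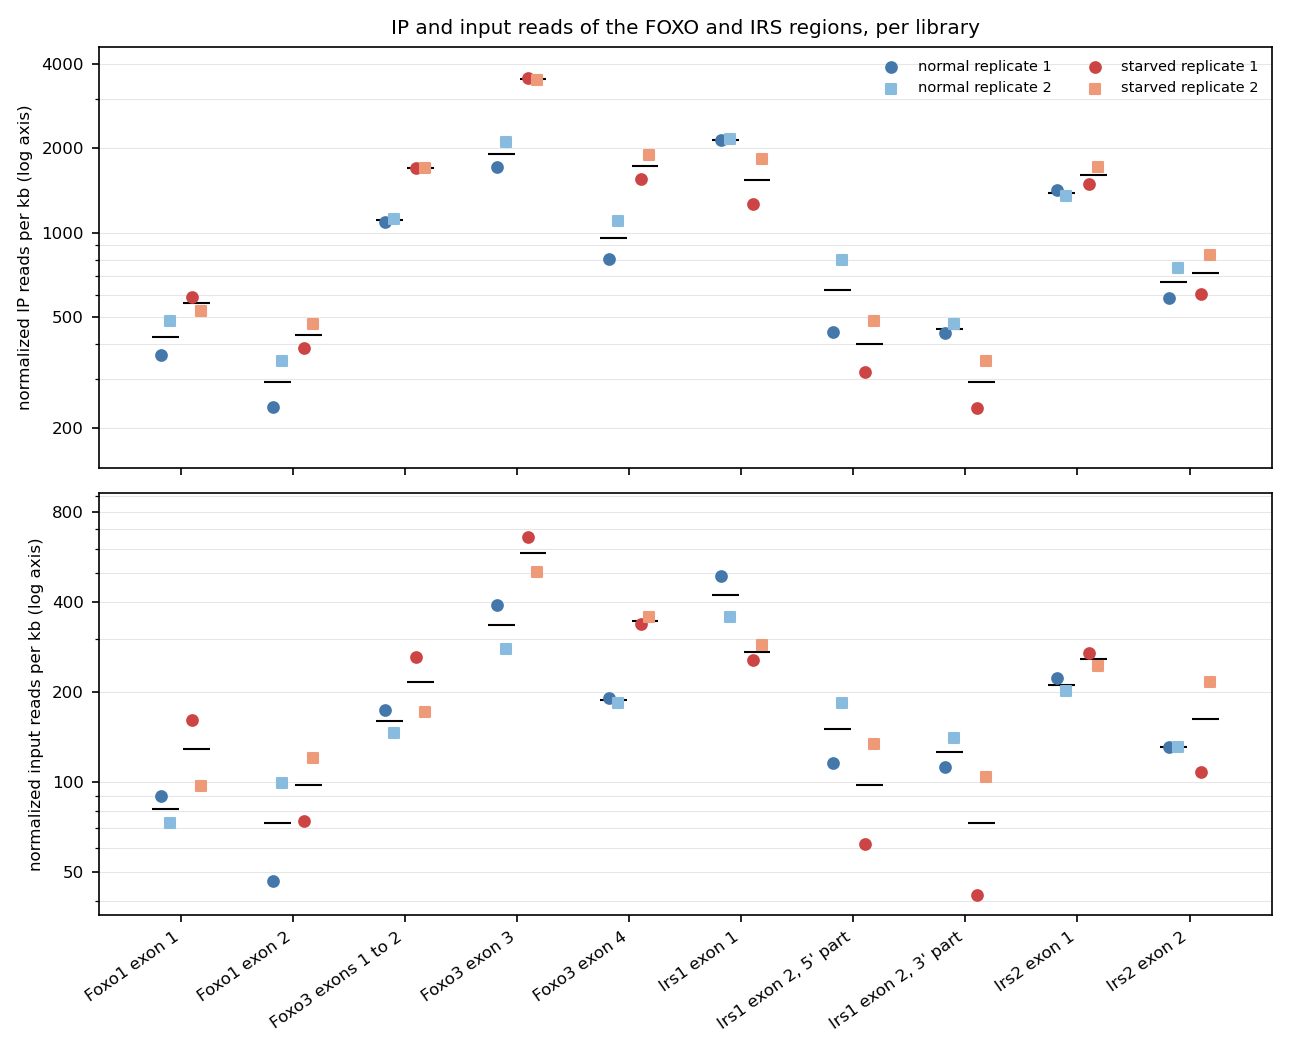
Normalized IP reads (top) and input reads (bottom) per kb of called sequence, on log axes, for the 10 regions of Foxo1, Foxo3, Irs1 and Irs2, with 1 point per library and a line at the mean of the 2 replicates of a condition. Starved values of Foxo3 exon 3 (3554 and 3512 for IP) lie above normal ones (1708 and 2115), those of Irs1 exon 1 lie below, and the input follows in the same direction.

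The third comparison took the input reads of the same regions, which were taken to stand for the level of the RNA before the IP. They are known only inside peaks called in the IP and were not checked against whole mRNA levels. The mean inputs of Foxo3, Foxo1 and Irs1 differed between the conditions in the direction of their IP reads, in some regions with overlap, and none of them passed the edgeR test. Over exon 3 of Foxo3 there were 389 and 278 normalized input reads per kb in normal and 658 and 503 in starved MEFs (log2 change 0.80 ± 0.26, adjusted p = 0.349). Over exon 4 the values were 191 and 184 in normal and 336 and 355 in starved MEFs (0.88 ± 0.21, adjusted p = 0.136). In both regions the groups stood apart. Over exons 1 and 2 the values were 174.5 and 146 in normal and 260.5 and 171 in starved MEFs, where starved replicate 2 lay below normal replicate 1 (0.43 ± 0.28, adjusted p = 0.830).

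The input of Foxo1 was thinner. Over exon 1 it had 89.6 and 72.8 normalized reads per kb in normal and 161 and 96.9 in starved MEFs (0.66 ± 0.34, adjusted p = 0.730). Over exon 2 it had 46.6 and 98.8 in normal and 74.0 and 121 in starved MEFs, with overlap (0.40 ± 0.44, adjusted p = 0.897). These values rest on 104 to 178 input reads in exon 1 and on 37 to 146 in exon 2.

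Input of Irs1 over exon 1 was 488 and 357 normalized reads per kb in normal and 256 and 286 in starved MEFs (-0.64 ± 0.23, adjusted p = 0.433), without overlap. Over the 3′ part of exon 2 it was 112 and 140 in normal and 41.8 and 104 in starved MEFs (-0.79 ± 0.42, adjusted p = 0.757). Over the 5′ part it was 116 and 183 in normal and 62.1 and 134 in starved MEFs, which overlapped (-0.60 ± 0.39, adjusted p = 0.821). Irs2 had 222 and 201 in normal and 269 and 244 in starved MEFs over exon 1 (0.28 ± 0.22, adjusted p = 0.859). Over exon 2 it had 130.3 and 131 in normal and 108 and 216 in starved MEFs, so that the starved libraries lay on either side of the normal ones and the log2 changes in the replicates were -0.27 and 0.72 (0.31 ± 0.34, adjusted p = 0.897). Insr had 152 and 138 in normal and 143 and 143 in starved MEFs over its 14 regions, and Igf1r 487 and 530.0 in normal and 498 and 531 in starved MEFs over its 17.

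With 1 library left out, the edgeR log2 change of input ranged from 0.55 to 1.08 over exon 3 of Foxo3, from 0.83 to 0.93 over its exon 4 and from 0.092 to 0.70 over its exons 1 and 2. It ranged from 0.26 to 0.98 over exon 1 of Foxo1 and from 0.0016 to 1.04 over its exon 2. For Irs1 the range was -0.87 to -0.37 over exon 1, -1.28 to -0.17 over the 5′ part of exon 2 and -1.59 to -0.28 over its 3′ part, and for exon 1 of Irs2 it was 0.19 to 0.37.

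Among the 25 regions by name, both starved inputs lay above both normal ones in 5 and below in 3, against 18.5% and 19.0% of all regions. None passed edgeR, where 0.214% of all regions were higher and 0.766% lower. At an unadjusted p under 0.05, 2 member regions were higher (exons 3 and 4 of Foxo3) and 1 lower (exon 1 of Irs1), against 4.01% and 4.23% of all regions. DESeq2 passed exon 4 of Foxo3 (log2 change 0.88, adjusted p = 0.0218) and no other member region, against 0.643% of all regions higher and 1.22% lower.

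**Figure D4:**
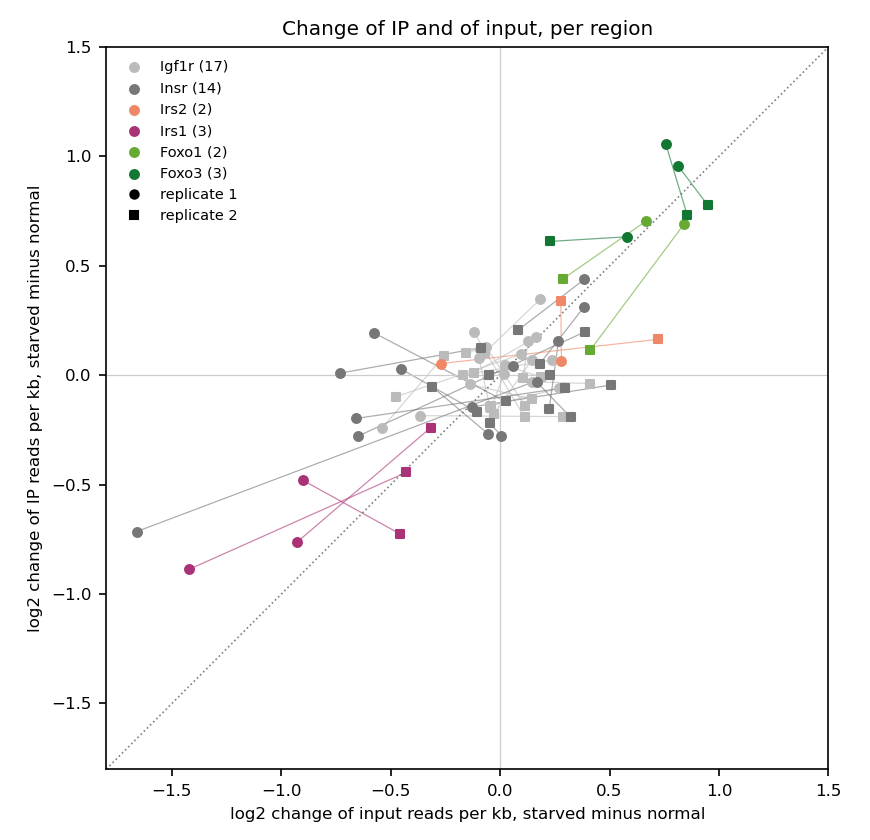
Log2 change from normal to starved MEFs of input reads per kb (horizontal) and IP reads per kb (vertical) of the 41 member regions, with circles for replicate 1, squares for replicate 2, a line joining the replicates of a region and a dotted line where both changes are equal. Foxo3 lies in the upper right, up to 1.06 for IP, Irs1 in the lower left, and most Insr and Igf1r regions around 0, with exon 12 of Insr at -1.66 for input in replicate 1.

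Among all 6531 regions the log2 IP change of Foxo3 exon 3 stood at percentile 98.4, that of its exon 4 at percentile 98.2 and that of exons 1 and 2 at percentile 95.4. Their input changes stood at percentiles 93.1, 94.4 and 81.8, and the changes of the ratio at percentiles 64.9, 46.3 and 81.9. For Foxo1 the percentiles of the IP change were 87.9 in exon 1 and 93.9 in exon 2, and for Irs1 they were 8.64 in exon 1, 4.93 in the 5′ part of exon 2 and 4.82 in its 3′ part. These describe where the members lie and are not a test.

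The regions outside Foxo3 whose 4 log2 folds were most like those of Foxo3 exon 3 were sought by Euclidean distance over 4505 regions in which no list had fewer than 100 IP reads. The closest (distance 0.11) lies in an exon of Stk35 and carries the name Stk35os1, with folds of 1.61, 2.39, 1.90 and 2.28 (log2, normal replicates 1 and 2, starved replicates 1 and 2). The next lie in exons of Myo9b (named Use1, 0.13) and Ttc28 (named Pitpnb, 0.18). Nothing about shared function follows from the distance.

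The pathway around the members was read from further lists. Of 32 other genes of the insulin, PI3K and AKT pathway, 27 had a kept peak and 12 had regions in all 4 lists, 19 regions in number. None passed edgeR for the IP/input ratio, for IP reads or for input reads. Both starved IP values lay above both normal ones in 4 of the 19 and below in 2, against 20.1% and 19.7% of all regions. The median log2 IP change was 0.07, against 0.01 for all regions. Pik3r1, a regulatory subunit of PI3K, held the 3 regions with the largest higher IP in both replicates, with log2 changes of 0.68, 0.48 and 0.43 (adjusted p = 0.421, 0.688 and 0.521). Tsc2, a brake on mTORC1, was the deposited name of the 3 lower ones, with -0.43, -0.32 and -0.28, of which only the first overlaps a Tsc2 exon and all overlap exons of its neighbour Pkd1.

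Of 25 other FOXO target genes, 13 had a kept peak and 5 had regions in all 4 lists, 7 regions in number. Here 3 regions passed edgeR for lower IP reads and none for higher, against 0.934% and 0.184% of all regions. All 3 belonged to 1 gene, Trib1, which encodes a pseudokinase. Over chr15:59654021-59656640 of Trib1 there were 1319 and 2497 IP reads in normal and 393 and 779 in starved MEFs, with 344 and 689 against 51 and 111 input reads. The log2 change of IP reads per kb was -1.76 (adjusted p = 0.0293) and that of input reads was -1.98 (adjusted p = 0.0149), while that of the ratio was 0.22 (adjusted p = 0.999). In the other regions of Trib1 the IP reads fell by 1.69 and 1.46 on the log2 scale (adjusted p = 0.0217 and 0.0274). Their input did not pass, with -1.49 (adjusted p = 0.0514) and -1.11 (adjusted p = 0.414), and their ratios were -0.19 and -0.36, opposite in sign to that of the first region (adjusted p = 0.999 for each). With no offset for the called length, edgeR passed 0 of all regions for IP or input, those of Trib1 included. Bcl2l11, which encodes the death protein BIM, was higher in both replicates (1.10, adjusted p = 0.0956), and its input was too (1.51, adjusted p = 0.0572). Sesn3, a stress-induced sestrin, had 0.39 (adjusted p = 0.730) and Ccnd2, the D-type cyclin that FOXO factors repress, 0.08 (adjusted p = 0.933).

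Of 20 regulators of FOXO proteins, 11 had a kept peak and 4 had regions in all 4 lists, with 7 regions. None passed edgeR for the ratio, for IP or for input. The highest log2 IP changes with the same sign in both replicates were 0.43 and 0.36 in 2 regions of Ep300 and 0.16 in Crebbp, acetyltransferases that act on FOXO proteins, and the single lower one was -0.10 in Setd7, a methyltransferase of FOXO3. Their adjusted p ran from 0.546 to 0.935.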

How the data were processed

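YTHDF3 RIP-seq with input was analysed in normal MEFs and in MEFs starved for 2 h, with 2 replicates each. By the labels and the study's methods, the authors trimmed reads, aligned with TopHat2 2.0.13 to mm10, used diffReps to call peaks of each IP against an input, and took gene names from HOMER. The counts deposited for normal replicate 2 are whole reads per peak. The values deposited for the other 3 libraries are a signal, reads multiplied by 1 factor for the IP and another for the input. These factors were 0.898 and 1.11 in normal replicate 1, 0.655 and 1.53 in starved replicate 1 and 0.816 and 1.22 in starved replicate 2. A log2 ratio of IP over input was deposited too and was not used, and the deposited p-value served as a filter on peaks.

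Dividing by these factors gave back whole reads for 100% of values (tolerance 0.0055 in the deposited unit). Folds used the values as deposited, although the design had assumed reads. A shift of IP over input common to all regions of a list may therefore be scaled out of the folds. The recovered reads of the 6531 regions shared by all lists entered edgeR 4.0.16 (quasi-likelihood, TMM, Benjamini-Hochberg adjustment). The ratio model had a term for each pair of IP and input, and the models of IP or input alone had the called length as an offset. The SE is the log2 change over the square root of F. DESeq2 1.42.0 was an alternative. On simulated data from these regions edgeR recovered 82.5% (ratio), 83.0% (IP) and 35.5% (input) of 200 regions changed 2.5-fold. It also called 11, 5 and 5 regions that had not been changed. The simulated spread between samples followed the trend over all regions, without differences between regions of like depth. Changes under 2.5-fold were not simulated, so these shares do not tell how often smaller changes would be found. Exact permutation of 2 against 2 libraries cannot give a two-sided p under 0.333 and was not used.

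The members, gene lists and tests were chosen with earlier results of these data known. Named are all members and, from each further list, up to 3 regions per direction, ranked by IP reads per kb in the replicate that changed less, where no list had under 20 IP reads.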

Additional observations from a re-analysis of the deposited data

How the results depend on the processing

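Of 51 alternative counts of called member regions, genes present and GGAC shares, 7 moved. DESeq2 called 2 member regions for IP (exons 3 and 4 of Foxo3) and 1 for input (exon 4), against 0 and 0 in edgeR, and 67 higher and 113 lower regions of all for IP and 42 and 80 for input. When libraries were left out, the called member regions ranged from 0 to 1 for the fold within replicates, from 0 to 2 for IP and from 0 to 1 for input, and stayed at 0 for the ratio. The 1 fold was exon 12 of Insr without replicate 2 (log2 change 0.89), the 2 for IP were exons 3 and 4 of Foxo3 without normal replicate 2, and the 1 for input was the 3′ part of Irs1 exon 2 without starved replicate 2 (-1.59, adjusted p = 0.0356 in edgeR). A lone sample was then assumed to vary like the other group. Over all regions these fits called 1 to 2 higher and 0 to 1 lower for the ratio, 7 to 83 and 32 to 118 for IP and 25 to 89 and 60 to 128 for input. Without the length offset, edgeR called 0 regions of all for IP and for input. With at least 20 reads in every library it called 0 of 4780 for the ratio, against 1. For the fold, the changes called in all regions were 67 higher and 77 lower at 1.5-fold, 10 and 13 at 2-fold, 24 and 23 by the peak with the highest fold, 12 and 34 with 1 read added, 7 and 5 with 50% reciprocal overlap and 4 and 6 of 334 with an IP/input of at least 4. A floor of 3 on the deposited input value, chosen after seeing the data, gave 17 and 22.

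The replicate block changed no call on the ratio and gave 7 called member regions for IP (4 higher, the 3 of Foxo3 and exon 2 of Foxo1, and 3 lower, those of Irs1) and 2 for input (exons 3 and 4 of Foxo3), each 0 without it, with 321 higher and 329 lower of all regions for IP and 108 and 150 for input. In edgeR with the block the adjusted p for IP was 0.00694, 0.00159 and 0.00111 for exons 1 and 2, exon 3 and exon 4 of Foxo3, 0.0435 for Foxo1, and 0.0441, 0.0186 and 0.0286 for exon 1 and the 5′ and 3′ parts of exon 2 of Irs1. No label ties a replicate number to a shared culture or day. Replicate differences correlated between conditions across regions with r = 0.28 (ratio), 0.45 (IP) and 0.21 (input), and 2 pairs are too few to show pairing.

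Of 409 alternative values for single regions, 33 had the other sign than the main value, and 15 passed a test that the main value had not. The largest turn on the log2 scale was the mean IP/input fold change over exon 2 of Foxo1, 0.11 in the main setting and -0.62 with the peak of highest fold, where that over exon 1 of Irs2 went from -0.063 to -0.39. From 1 replicate alone the fold change also turned sign over exons 3 and 4 of Foxo3, exon 2 of Foxo1, the 5′ part of Irs1 exon 2 and both exons of Irs2, where it lay between -0.19 and 0.27. The edgeR ratio over the 5′ part of Irs1 exon 2 was -0.017 by library totals only, -0.0077 with at least 20 reads in every library and -0.031 with the replicate block. IP over exon 2 of Irs2 was -0.072 with no length offset. With 1 library left out the ratio ranged from -0.57 to 0.10 (Foxo1 exon 1), -0.21 to 0.37 (Foxo1 exon 2), -0.080 to 0.50 (Foxo3 exons 1 and 2), -0.29 to 0.46 (Foxo3 exon 3), -0.25 to 0.22 (Foxo3 exon 4), -0.088 to 0.33 (Irs1 exon 1), -0.21 to 0.32 and -0.14 to 0.65 (5′ and 3′ parts of Irs1 exon 2), -0.24 to 0.067 (Irs2 exon 1) and -0.42 to 0.15 (Irs2 exon 2). IP ranged from 0.19 to 0.59 and 0.29 to 0.84 (Foxo1 exons 1 and 2), 0.59 to 0.63, 0.73 to 1.03 and 0.63 to 1.09 (Foxo3 exons 1 and 2, 3 and 4), -0.77 to -0.24, -1.01 to -0.15 and -0.95 to -0.39 (Irs1 exon 1, 5′ and 3′ parts of exon 2) and 0.10 to 0.30 and -0.13 to 0.33 (Irs2 exons 1 and 2). Input ranged from -0.28 to 0.72 over Irs2 exon 2. The cause was not tested. With 2 libraries per condition, small changes of the ratio, and of input in thinly covered regions such as Foxo1, cannot be shown.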
